A study of Fragaria vesca with 9 samples.

Results

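The 100 genes described here were lower in axillary buds of FT3OE, a strawberry line whose name is read as FT3 overexpression, than in buds of both RdV and H4, while RdV and H4 lay close together. They were chosen by their measured levels in these same libraries, from 34006 listed genes. CPM, a gene's counts scaled to a common library total, were put on the scale log2(CPM + 0.5) and averaged over the 3 libraries of each genotype. A gene qualified when its RdV and H4 means differed by less than 0.3, all 3 FT3OE values lay below all 6 others, its mean over the libraries was at least 1 CPM, and its identifier lay outside the stretch from FvH4_4g29310 to FvH4_4g29630. Of the 16946 genes outside the stretch at this level, 360 (2.12%) qualified, and the 100 with the largest difference to the nearer of the RdV and H4 means are the members. All 3 genotype contrasts therefore chose the list, so the differences between genotypes describe the chosen genes, also where calls from a fit over all genes are counted, and no p-value is given for a member.

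RNA came from buds of Fragaria vesca, woodland strawberry, dissected while undifferentiated from node 4 of untreated plants with 4 leaves, grown in long days of 16 h light. FT3OE is labelled with the ecotype and genotype Hawaii-4 and is identified as an FT3 line by its title and by the design text; the sources used here give neither its promoter nor the number of lines or clones. RdV is a separate ecotype with its own genome background. H4 is the Hawaii-4 accession itself. Each genotype has 3 libraries, titled UB4 in FT3OE and RdV and US4 in H4, codes that the labels leave undefined. In the comparison of FT3OE with H4, genotype and code cannot be told apart; FT3OE and RdV share their code. The labels do not say whether replicates came from separate plants, so the spread between them may be technical.

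An axillary bud sits at the base of a leaf. In strawberry it can stay dormant, elongate into a runner that founds a daughter plant, or become a branch crown, a compact leafy shoot that can end in an inflorescence. Proteins of the FLOWERING LOCUS T family are small signals made in leaves and other tissues that reach shoot tips, where they act with bZIP factors and promote flowering in many plants; in several species they also alter the fate of axillary meristems. The deposited tables hold identifiers only, and 0 of 34006 matched the RefSeq gene table used here, so the members are given by identifier, without gene names or roles. For the same reason bud and meristem markers could not be looked up. The digit ahead of the letter g in an identifier is taken as its linkage group, and the digits behind it as its place there.

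Library totals ran from 26493202 to 44916866 counts in FT3OE, from 26797546 to 30507161 in RdV and from 23110936 to 30448627 in H4. FT3OE replicate 1, at 26493202 counts, was close to the RdV and H4 libraries, while replicates 2 and 3 were the deepest of the series. One identifier marked the FT3OE libraries. FvH4_3g09870, which had the largest fitted increase over H4 among called genes with a mean of at least 5 CPM, reached 285 ± 24.5 CPM in FT3OE (SD, n = 3), from 7584, 11460 and 13889 counts, while the RdV libraries held 1, 0 and 0 counts and the H4 libraries 3, 1 and 0. No table used here pairs it with a name.

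Most members were moderately lower in FT3OE and a minority strongly so. On the log2(CPM + 0.5) scale, the median difference of FT3OE from H4 over the members was −0.69 (range −2.06 to −0.38), beside 0.10 over all 16968 genes with a mean of at least 1 CPM. The median difference of FT3OE from RdV was −0.65 (range −2.26 to −0.39), beside 0.03 over all those genes. In 20 members the smaller of both differences reached 1, a change of at least 2-fold on this scale, and in 30 it was under 0.5. The highest FT3OE value and the lowest of the 6 other values were separated by a median of 0.28, and by as little as 0.0015 in FvH4_2g33310 and as much as 1.81 in FvH4_5g34610.

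**Figure D1:**
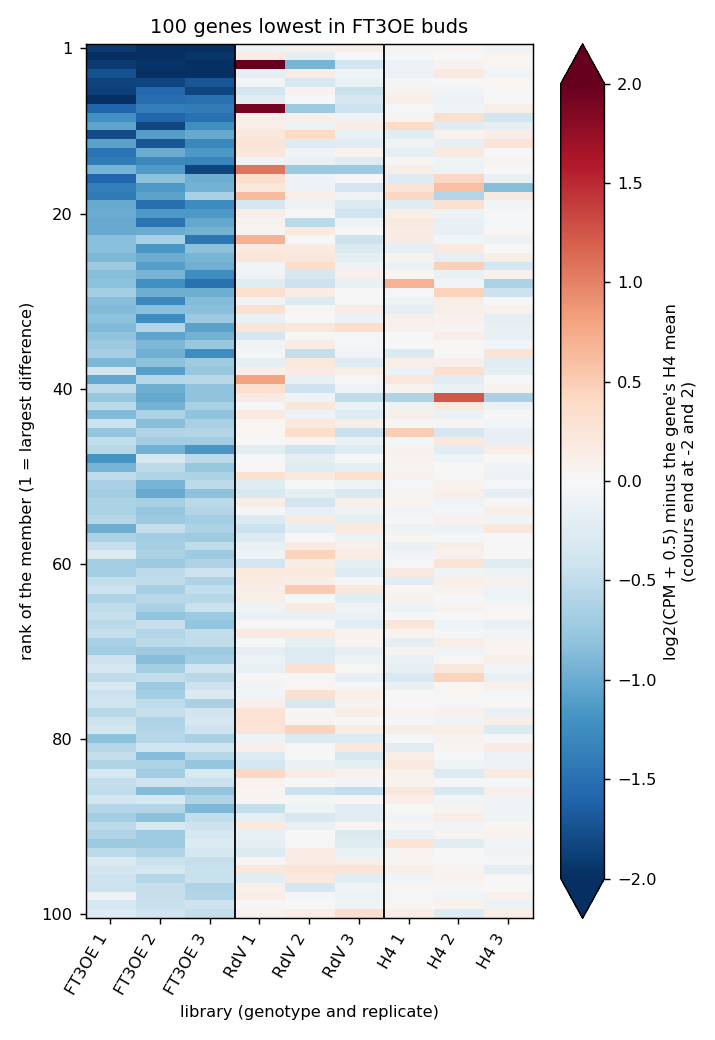
Heat map of log2(CPM + 0.5) minus the gene's H4 mean for the 100 members (rows, by rank) in the 9 libraries (columns, FT3OE, RdV and H4, replicates 1 to 3). The FT3OE columns are blue, darkest at the top and nearly white in single cells lower down, with a median difference of −0.69, and single red cells mark members that were high in 1 RdV or H4 library.

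Summed over the members, the FT3OE libraries held 2227, 2073 and 2154 TPM in replicates 1, 2 and 3, against 4245, 3928 and 4005 TPM in RdV and 4019, 4116 and 3950 TPM in H4. TPM, a transcript share scaled to a fixed sum, take gene length into account, and the sum covers all 100 genes. FvH4_1g05400 supplied the largest part; without it the sums were 1913 to 2049 TPM in FT3OE, 3262 to 3409 TPM in RdV and 3219 to 3406 TPM in H4. The median range of a member among the 3 libraries of a genotype was 0.29 on the log2 scale in FT3OE, 0.30 in RdV and 0.24 in H4. Each was wider than over all genes with a mean of at least 1 CPM, where the medians were 0.16 in FT3OE, 0.24 in RdV and 0.17 in H4; the rule bears on these ranges. In bulk libraries of this kind, fewer cells that express a gene and less RNA per cell cannot be told apart.

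FvH4_5g34610 ranked first. It had 2.83, 2.57 and 2.20 CPM in FT3OE replicates 1, 2 and 3, against 11.2, 12.8 and 13.2 CPM in RdV and 12.6, 12.2 and 11.4 CPM in H4. The 6 RdV and H4 libraries form a narrow band, and the FT3OE libraries lie well below it. The fitted log2 fold change was −2.35 ± 0.13 (edgeR, SE) against H4 and −2.32 ± 0.13 against RdV. FvH4_1g05400, at rank 2, was also the most abundant member per length. It had 178, 161 and 187 TPM in FT3OE, against 836, 613 and 743 TPM in RdV and 689, 711 and 731 TPM in H4. Its CPM averaged 234 ± 20 in FT3OE, 965 ± 115 in RdV and 975 ± 27 in H4 (SD, n = 3 each), and no FT3OE library came near the others.

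FvH4_4g29810, at rank 4, had 34.0, 26.9 and 26.1 CPM in FT3OE, against 99.6, 126 and 107 CPM in RdV and 106, 131 and 109 CPM in H4. Between this member and the end of the linkage group 4 stretch that the rule left out stand 18 listed identifiers, and no gene inside that stretch would have qualified. FvH4_5g33670 had 8.23, 8.29 and 9.15 CPM in FT3OE, against 29.7, 24.6 and 28.1 CPM in RdV and 30.4, 30.8 and 31.7 CPM in H4. Its RdV libraries were all below its H4 libraries, so the 3 genotypes did not overlap in this gene, although FT3OE lay far from both others. Ranks 6 and 7 shared the order FT3OE, RdV, H4 in their means. FvH4_3g06650 averaged 4.63 ± 0.61 CPM in FT3OE, 14.2 ± 3.0 CPM in RdV and 16.8 ± 0.8 CPM in H4 (SD, n = 3 each). FvH4_6g12110 averaged 4.99 ± 1.05 CPM in FT3OE, 14.8 ± 1.9 CPM in RdV and 16.9 ± 1.4 CPM in H4 (SD, n = 3 each). In FvH4_6g12110 FT3OE replicate 1, at 3.77 CPM, was the lowest library of all.

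At ranks 9 and 10 single libraries moved the fitted values. FvH4_7g17280 had 24.4, 18.8 and 19.9 TPM in FT3OE, against 64.3, 59.1 and 55.04 TPM in RdV and 58.0, 68.9 and 43.2 TPM in H4. H4 replicate 3 was the nearest library to the FT3OE values, and the fitted log2 fold change against H4, −1.57 ± 0.16 (edgeR, SE), was −1.74 once that library was left out and −1.40 once H4 replicate 2 was. FvH4_4g15870 was a low gene, with 1.43, 0.64 and 1.20 CPM in FT3OE, against 3.90, 3.22 and 3.96 CPM in RdV and 4.79, 2.90 and 3.05 CPM in H4. Its fitted log2 fold change against H4 was −1.84 ± 0.30 (edgeR, SE), and −1.54 without FT3OE replicate 2, which held its lowest value.

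**Figure D2:**
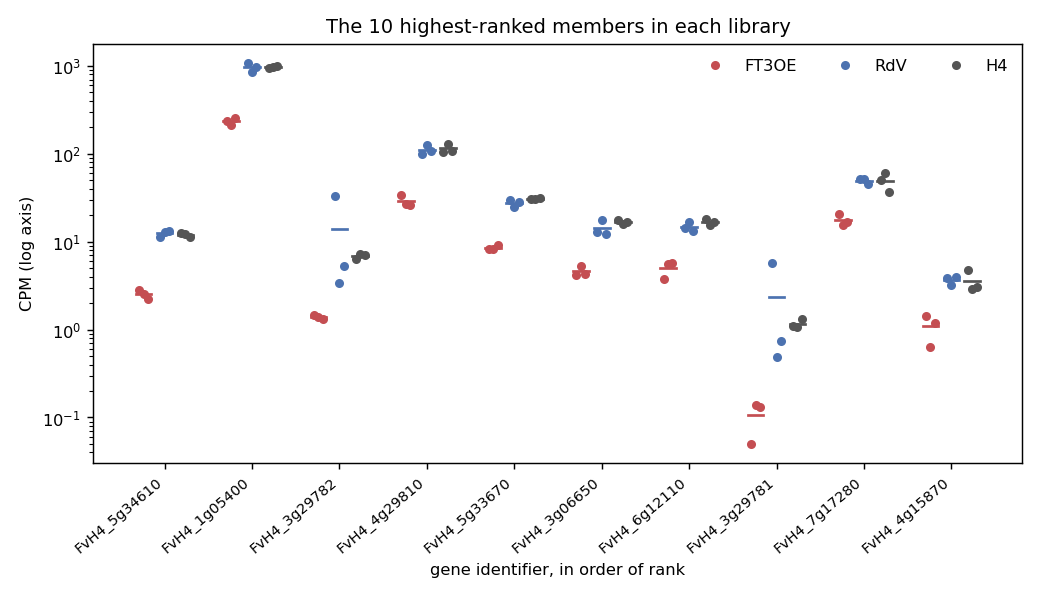
CPM (log axis) of the 10 highest-ranked members in each library, with FT3OE in red, RdV in blue and H4 in grey; points are replicates 1 to 3 from left to right and bars are means. FT3OE lies lowest for all 10, and RdV replicate 1 stands above the other libraries in FvH4_3g29782 (33.0 CPM) and FvH4_3g29781 (5.76 CPM).

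Some members owed their place to an uneven set of RdV libraries. FvH4_3g29782 and FvH4_3g29781, at ranks 3 and 8, carry neighbouring identifiers and are the only members next to each other in the list of identifiers. FvH4_3g29782 had 1.46, 1.38 and 1.32 CPM in FT3OE, against 33.0, 3.36 and 5.23 CPM in RdV and 6.31, 7.20 and 7.08 CPM in H4. FvH4_3g29781 was near the detection limit in FT3OE, where replicates 1, 2 and 3 gave 1.33, 6.09 and 5.84 estimated counts; RdV gave 175.74, 13.15 and 19.89, and H4 gave 33.77, 24.55 and 38.49. Both are lowest in FT3OE, and in both RdV replicate 1 was above all H4 libraries while RdV replicates 2 and 3 were below all of them. Their counts were fractional in all 9 libraries, as the authors' estimation gives where reads fit more than 1 gene. In each library the counts of the pair add up to a whole number, as where reads are shared within the pair. The split of reads between them is uncertain, so they are not separate observations.

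In all, 4 members had RdV libraries more than 1 apart on the log2 scale, and in each of the 4 replicate 1 was the highest. FvH4_4g36510 had 4.23, 0.85 and 0.86 CPM in RdV replicates 1, 2 and 3, and FvH4_1g12460 had 12.03, 7.25 and 5.30 CPM. Without RdV replicate 1 the mean difference of RdV from H4 was −0.64 in FvH4_3g29782, −0.58 in FvH4_3g29781 and −0.73 in FvH4_4g36510, beyond the limit of 0.3, so these 3 would not have qualified; FvH4_1g12460, at −0.21, would have. In all, 9 members did not meet the rule without RdV replicate 1, 9 without RdV replicate 2, 11 without RdV replicate 3, and 11, 12 and 9 without H4 replicates 1, 2 and 3, so RdV replicate 1 does not stand apart in this. On fitted counts, which do not average logarithms, RdV was 0.92 above H4 (log2) in both FvH4_3g29782 and FvH4_3g29781. Over all members, 14 had a fitted difference of RdV from H4 beyond 0.3 in size, 2 of them higher and 12 lower in RdV.

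H4 replicates were uneven in 3 other members, which were named after their values were seen. FvH4_3g40360 had 2.64, 2.11 and 2.56 CPM in FT3OE, against 5.44, 4.51 and 3.25 CPM in RdV and 3.02, 12.1 and 2.88 CPM in H4. H4 replicates 1 and 3 lay just above the FT3OE libraries, and H4 replicate 2 far above them. FvH4_7g33840 had 1.21, 1.52 and 1.83 CPM in FT3OE, against 4.72, 3.66 and 2.91 CPM in RdV and 4.83, 6.27 and 1.97 CPM in H4. FvH4_3g03042 had 0.78, 0.46 and 0.30 CPM in FT3OE, against 1.39, 1.17 and 1.53 CPM in RdV and 3.13, 1.66 and 0.95 CPM in H4. In all 3 genes an H4 library came closer to FT3OE than any RdV library did.

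No member had FT3OE libraries more than 1 apart on the log2 scale. The largest range, 0.90, was that of FvH4_4g36510, where FT3OE gave 18, 23 and 6 counts, RdV 129, 23 and 23, and H4 59, 37 and 51. RdV replicates 2 and 3 and FT3OE replicate 2 held the same count, and the CPM differ through the library totals. FvH4_3g19190 had 0.94, 2.13 and 1.80 CPM in FT3OE, against 2.75, 2.44 and 2.72 CPM in RdV and 2.99, 2.64 and 2.85 CPM in H4. FvH4_1g12460 had 3.85, 4.45 and 2.34 CPM in FT3OE, against 12.03, 7.25 and 5.30 CPM in RdV and 8.18, 6.92 and 6.72 CPM in H4. FT3OE replicate 1 was the highest FT3OE library in 51 members, replicate 2 in 22 and replicate 3 in 27. The shallowest FT3OE library thus most often lay nearest to the other genotypes, and it still lay below all 6 in every member, as the rule requires.

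After FvH4_1g05400, the members with the most transcript per length were FvH4_5g04420, FvH4_7g32990, FvH4_4g01290 and FvH4_2g24771. FvH4_5g04420 had 183, 202 and 202 TPM in FT3OE, against 489, 438 and 434 TPM in RdV and 490, 445 and 513 TPM in H4, a fitted log2 fold change against H4 of −1.43 ± 0.06 (edgeR, SE). FvH4_7g32990 had 204, 169 and 222 TPM in FT3OE, against 280, 306 and 308 TPM in RdV and 305, 324 and 305 TPM in H4. Its relative difference was smaller than that of FvH4_5g04420, with a fitted log2 fold change of −0.78 ± 0.11. FvH4_4g01290 had 159, 160 and 142 TPM in FT3OE, against 199, 214 and 223 TPM in RdV and 270, 222 and 223 TPM in H4. FvH4_2g24771 had 120, 105 and 106 TPM in FT3OE, against 180, 172 and 165 TPM in RdV and 163, 189 and 155 TPM in H4. In each of these 4 genes the FT3OE libraries formed the lowest group without overlap.

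The edge of the list is not sharp. FvH4_2g33310, FvH4_6g16550 and FvH4_6g10520, ranked 98, 99 and 100, had smaller differences of 0.387, 0.387 and 0.379, while FvH4_6g09520, FvH4_5g05670 and FvH4_4g24850, just outside, had 0.378, 0.376 and 0.371. FvH4_6g16550 is an abundant gene with 112, 105 and 107 CPM in FT3OE, against 145, 143 and 136 CPM in RdV and 147, 150 and 132 CPM in H4. FvH4_2g33310 shows the other kind, with 5.96 CPM in FT3OE replicate 1 and 5.97 CPM in RdV replicate 3.

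The rule used the contrasts of FT3OE with H4 and RdV, so the calls made on them in a fit over all genes follow from the choice of members and nothing is read from their number. All 100 passed the low-count filter. With edgeR's quasi-likelihood test and Benjamini-Hochberg adjustment at 0.05, 99 members were called lower in FT3OE than in H4, beside 14.9% of the 18587 genes tested, and 92 were called lower in FT3OE than in RdV, beside 11.1%. Both calls together were made for 92 members, beside 1.92% (357 genes). The member not called against H4 was FvH4_3g40360, whose fitted log2 fold change was −1.38 with an SE of 0.49; it and FvH4_6g46740, FvH4_3g19190, FvH4_6g08910, FvH4_2g34780, FvH4_2g21240, FvH4_3g24180 and FvH4_2g33310 were not called against RdV. The median fitted log2 fold change of the members was −0.84 against H4 and −0.74 against RdV, beside 0.01 and 0.01 over all genes tested.

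Between RdV and H4, 5 members were called, all lower in RdV, beside 48.1% of all genes called in either direction; the limit of 0.3 in the rule sets this low count. They were FvH4_5g33670, FvH4_5g04420, FvH4_4g12240, FvH4_6g24590 and FvH4_4g01290, with fitted log2 fold changes of RdV over H4 between −0.30 and −0.23. With limma on log2(TPM + 1) 4 of the 97 members tested were called, beside 45.1% of all genes. All 4 were higher in RdV, and 0 of them were among the 5 called with edgeR. Means on the log2(CPM + 0.5) scale were higher in RdV than in H4 for 43 members and lower for 57, with a median of −0.04 beside 0.06 over all genes. Without RdV replicate 2, 17 members were called between RdV and H4, beside 53.1% of all genes.

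**Figure D3:**
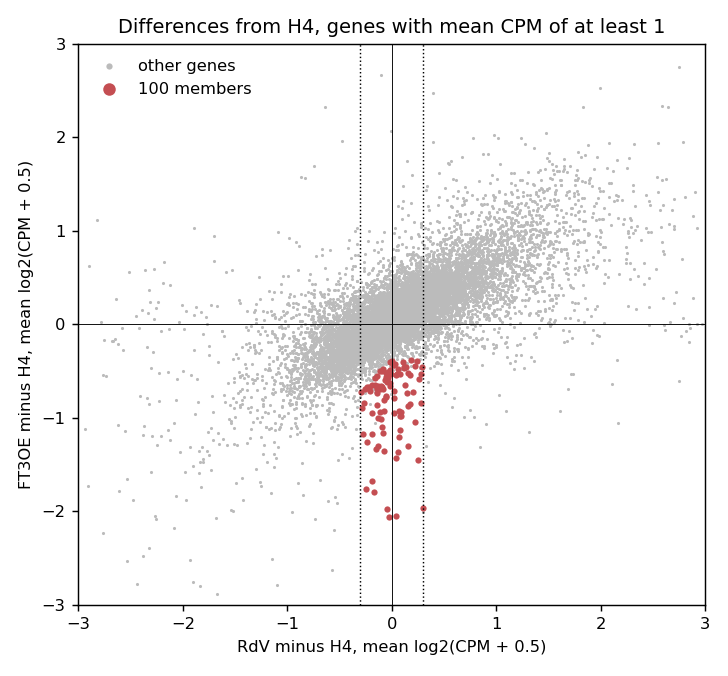
Mean difference of FT3OE from H4 (vertical) against that of RdV from H4 (horizontal), both in log2(CPM + 0.5), for genes with a mean of at least 1 CPM, with the 100 members in red and dotted lines at −0.3 and 0.3; 100 genes lie outside the plotted range. The members fill the band between the lines from −0.38 down to −2.06, and both axes use the same H4 libraries.

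The same rule turned round, with all FT3OE values above all others, was met by 1048 genes (6.18%), against 360 for the rule itself. This imbalance depended on the scaling. CPM by library totals placed the median gene 0.10 higher in FT3OE than in H4, and with TMM scaling, where that median was 0.01, 619 genes qualified as lowest in FT3OE and 696 as highest. With RLE scaling the numbers were 665 and 642, the other way round. The strongly lowered genes were less affected: differences of at least 1 were found in 20 genes lowest and 14 highest in FT3OE with CPM, and in 24 and 14 with TMM. No test of this difference was made.

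**Figure D4:**
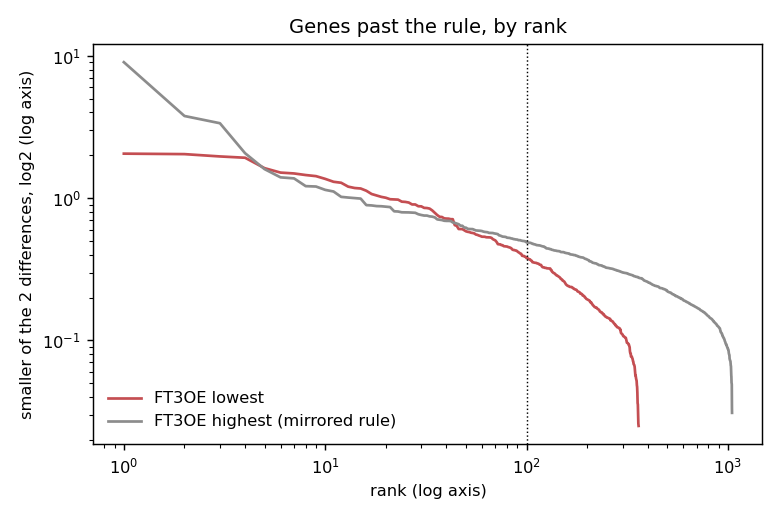
The smaller of a gene's differences between FT3OE and the 2 other genotypes, in log2 (log axis), by rank (log axis), for the 360 genes lowest (red) and the 1048 highest (grey) in FT3OE. The red curve starts at 2.05 and reaches 0.38 at rank 100 (dotted line), where the grey curve, which starts at 9.03, is at 0.49.

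Each library was also left out of the choice in turn. The left-out library itself was then unused, but it is set against libraries that chose the list, so its place is partly fixed by the rule, the share over all genes is no measure of what an unchanged gene would show, and the counts are a description. With the rule applied to 8 libraries, 91, 94 and 87 of the 100 genes chosen without FT3OE replicates 1, 2 and 3 had the left-out FT3OE library below all 6 others, beside 7.88%, 7.28% and 6.98% of all genes. The median difference from the lower of the RdV and H4 means was −0.52 in the left-out FT3OE replicate 1, against −0.62 in the FT3OE libraries that chose the list. It was −0.65 against −0.57 for replicate 2 and −0.62 against −0.67 for replicate 3. Likewise 92, 97 and 90 genes had left-out RdV replicates 1, 2 and 3 above all FT3OE libraries, beside 37.1%, 30.7% and 33.5% of all genes. For H4 these were 98, 96 and 92 genes, beside 27.9%, 26.2% and 25.4%. The 9 shorter lists shared 80 to 87 genes with the members, fewest without RdV replicate 1.

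**Figure D5:**
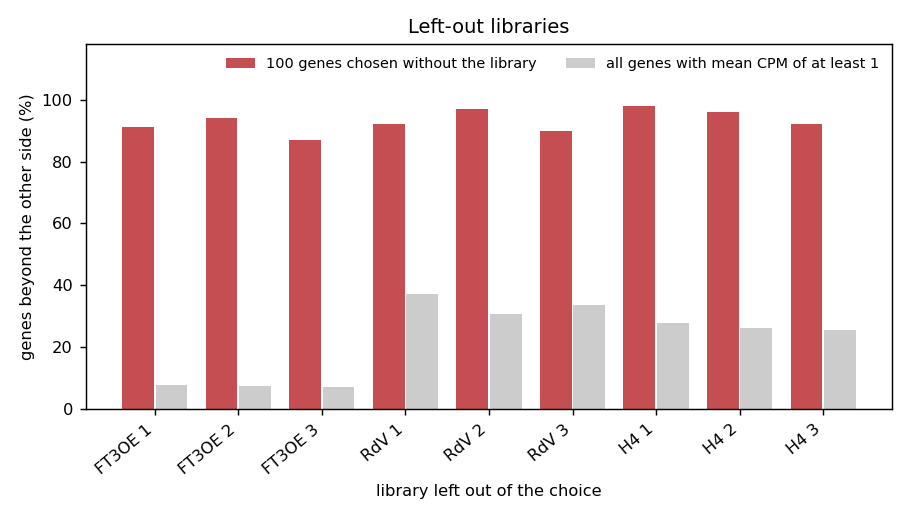
Share of the 100 genes chosen without a library (red) and of all genes with a mean of at least 1 CPM (grey) in which that library lay beyond the other side, below all RdV and H4 libraries for FT3OE and above all FT3OE libraries for RdV and H4. The red bars are at 87% to 98% and the grey bars at 6.98% to 37.1%.

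Among properties the rule did not use, the members were spread over the genome. Linkage groups 1 to 7 held 10, 11, 17, 15, 16, 20 and 11 members, where 11.4%, 14.98%, 15.7%, 12.9%, 14.0%, 18.9% and 12.1% of genes with a mean of at least 1 CPM lie. Few members stood close together. Beside the pair FvH4_3g29781 and FvH4_3g29782, FvH4_4g02260 and FvH4_4g02280 were 3 listed identifiers apart with 2 identifiers between them that held no counts, and FvH4_6g46710 and FvH4_6g46740 were 4 apart. FvH4_6g46730, which lies between the last 2, went the other way, with 43.5, 54.4 and 48.4 CPM in FT3OE, against 34.2, 26.6 and 36.2 CPM in RdV and 32.9, 23.6 and 30.0 CPM in H4. FvH4_6g46720, also between them, had a fitted log2 fold change of FT3OE over H4 of −0.02, beside 0.66 in FvH4_6g46730. FvH4_6g46730 is not next to a member and was named after its values were seen.

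The genes next to members were called lower than H4 about as often as any gene, and called higher less often. Calls lower than RdV were somewhat more frequent than over all genes, and no test of these shares was made. Of the 198 nearest identifiers on either side, 113 were tested. In 19 (16.8%) FT3OE was lower than H4 (edgeR quasi-likelihood test, adjusted p under 0.05), beside 14.9% of all genes. In 7 (6.19%) it was higher, beside 16.7%. FT3OE was called lower than RdV in 18 of the 113, beside 11.1% of all genes. The median fitted log2 fold change of the tested neighbours against H4 was −0.004, beside 0.01 over all genes. In 4 of the 19 FT3OE was also lower than RdV, which is 3.54% of the tested neighbours, beside 1.92% of all genes. Those 4 were FvH4_1g05410, FvH4_4g12160, FvH4_4g28020 and FvH4_6g08610, named after their values were seen. The neighbours leave out the members, while the shares over all genes include them. Of the 357 genes behind the 1.92%, 92 are members, so the sets compared are unlike. FvH4_4g12160, beside the member FvH4_4g12170, had 0.72, 0.68 and 0.73 CPM in FT3OE, against 3.31, 2.11 and 2.69 CPM in RdV and 3.91, 4.37 and 3.90 CPM in H4. FvH4_1g05410, beside FvH4_1g05400, had only 1, 1 and 13 counts in FT3OE, against 20, 27 and 17 in RdV and 21, 28 and 12 in H4. FT3OE replicate 3 and H4 replicate 3 thus overlap in counts but not in CPM, at 0.29 and 0.41. FvH4_4g28020 and its member FvH4_4g28021 both had fractional counts, and without an annotation overlap between neighbours could not be checked.

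The other 15 neighbours called lower than H4 were not called lower than RdV. In all 15 the fitted RdV level was also below H4, an order that this choice favours, so nothing is read from it. The fitted difference of RdV from H4 ran from −2.21 in FvH4_6g07500 to −0.08 in FvH4_6g08920. One of the 15, chosen after the values were seen, is FvH4_5g31840. This gene, beside the member FvH4_5g31830, had 7.02, 7.36 and 7.41 CPM in FT3OE and 6.92, 6.36 and 7.65 CPM in RdV, against 14.9, 15.9 and 18.3 CPM in H4. The member itself had 8.98, 9.26 and 9.26 CPM in FT3OE, against 21.2, 17.4 and 19.1 CPM in RdV and 14.8, 18.4 and 18.0 CPM in H4. Adjacent genes thus held different patterns, and in FvH4_5g31840 the RdV libraries overlapped those of FT3OE.

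The members were mostly less abundant than the median expressed gene, with 29 above it, and the rule bears on this. Their median mean level was 10.2 TPM, beside 21.5 TPM over all genes with a mean of at least 1 CPM; 42 members were below the 25th percentile of those genes and 16 above the 75th. Counting error is widest for the low ones: 27 members had a mean under 5 CPM and 15 a mean of at least 50 CPM. With a mean of at least 5 CPM required, these 27 drop out by definition and the other 73 stayed in the list of 100. The relative effective length, taken from counts per TPM, had a median of 0.93, beside 1.03 for those genes, with 25 members below the 25th percentile of length and 16 above the 75th. Fractional counts occurred in 7 members, beside 5.37% of those genes, and 15 members had an identifier that does not end in 0, beside 9.69%.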

How the data were processed

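Per the labels' protocols, stranded mRNA libraries were read in pairs of 150 bp. The authors deposited expected counts per gene, estimated and not normalized, and TPM per gene, scaled by the authors for effective length and to a fixed sum per library. The submitters' processing notes name STAR, RSEM and edgeR; the sources used here give no version, genome build or annotation. Members and named genes were chosen with earlier results of these data known. Named are the top 10, the 5 highest in TPM and the 3 with the widest FT3OE range. Adjacent members, 3 genes on either side of rank 100 and the largest rise in FT3OE are named too. All others were named after their values, calls or positions were seen, also where this is not marked.

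CPM were counts divided by library totals. Expected counts were rounded, filtered with filterByExpr, TMM-scaled and tested with edgeR 4.0.16 (quasi-likelihood, all 9 libraries, Benjamini-Hochberg) in R 4.3.3, checked on simulated data. The edgeR test gives no SE, so the SE printed is the size of the log2 fold change divided by the square root of its F statistic. Alternatives used DESeq2 1.42.0, limma 3.58.1 on log2(TPM + 1), other scalings, filters and rule limits, and left-out libraries. Totals were 23110936 to 44916866 counts; 3 counts amount to 0.0668 CPM (deepest library) to 0.130 CPM (shallowest).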

Additional observations from a re-analysis of the deposited data

How the results depend on the processing

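Under 12 other settings of the rule, 73 to 100 of the 100 members stayed in the list. The fewest stayed with a mean of at least 5 CPM, a limit that by definition removes the 27 members below it. Leaving out each library in turn kept 80 to 87. All 8 members that failed the rule with TMM scaling did so through the difference of RdV from H4; the 3 FT3OE libraries stayed below the 6 others in 100 members with TMM scaling and in 98 with TPM. Thinning every library to the smallest total kept 92. The number of genes past the rule, 360, moved to 619 with TMM scaling, 665 with RLE and 724 once each library's trend with gene length was removed, and ran from 396 to 535 with 1 library left out. Members called lower than H4, 99, ran from 85 (limma, 97 members tested) to 100 under other settings, beside 7.57% (limma) to 20.5% of all genes. With 1 library left out they ran from 87 to 100, beside 10.4% to 19.8%. Those called lower than RdV, 92, ran from 77 (limma) to 93, beside 8.25% (limma) to 11.6%. With 1 library left out these ran from 73 to 90, beside 7.71% to 13.2%. Members called between RdV and H4, 5, were 2 under library totals alone, beside 47.9% of all genes. With limma they were 4, beside 45.1%, none of them the same genes. With 1 library left out they were 4 to 17, beside 39.9% to 53.1%, and 17 without RdV replicate 2. Neighbours called lower than H4, 19, were 10 with limma, beside 7.57% of all genes. With 1 library left out they were 15 to 30, and 30 without RdV replicate 2, when 19.8% of all genes were called. The causes were not tested.

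With the replicate number as a block, 98 members were called lower than H4, beside 13.4% of all genes. Those called lower than RdV were 88, beside 9.71%, and those called between RdV and H4 were 7, beside 45.9%. Neighbours called lower than H4 were 19, beside the same 13.4%. The labels do not pair libraries by number: the deviations of same-numbered libraries from their genotype means correlated at −0.29 to 0.33 across genes, and not every pair was over 0.1. The pairs of RdV and H4 were all positive, at 0.06, 0.33 and 0.29 for replicates 1, 2 and 3, beside −0.32 to 0.11 for different numbers, but RdV replicate 1 correlated more with H4 replicate 3 (0.11) than with H4 replicate 1. Deviations from a mean of 3 libraries are tied to each other, so same and different numbers are not independent here. Different numbers also reached 0.24, in FT3OE replicate 1 with H4 replicate 2, and 0.21, in FT3OE replicate 2 with H4 replicate 1. The RdV and H4 pairs are at most a hint from the data, and the libraries were treated as sharing only a number. No fitted log2 fold change of the 24 named genes changed sign with other scalings, DESeq2, the replicate block or 1 library left out. Limma and the other filters were not looked at for these genes. The genes were chosen by their direction in these libraries, so nothing is read from the stable sign. Expected counts limit low members most: FvH4_3g29781 held 1.33 counts in FT3OE replicate 1.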
